A study of Mus musculus with 19 samples.

Results

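Egr1, Egr2 and Egr3 encode zinc finger transcription factors of the early growth response family, and Nab2 encodes a corepressor that binds them. These 4 genes were taken by name from the 28692 genes counted in mouse thymocytes by CITE-seq, in which barcoded antibodies let the transcripts and the surface proteins of each cell be counted together. The thymocytes came from 17 female mice aged 4 to 8 weeks. The 5 wild-type mice were C57BL/6 (B6). CD4-fated mice, whose thymocytes can be selected on MHC class II, were AND and OT-II mice, each carrying a transgenic T cell receptor (TCR) specific for class II, and MHCI-/- mice, which lack B2m and have diverse receptors. CD8-fated mice, whose thymocytes can be selected on MHC class I, were F5 and OT-I mice, each carrying a TCR specific for class I, and MHCII-/- mice, which lack H2-Ab1 and have diverse receptors. There were 2 mice of each of these 6 genotypes. AND and F5 mice also lacked Rag1, so that only the transgenic receptor could be assembled, whereas OT-I and OT-II mice kept Rag1. MHCI-/-, MHCII-/- and wild-type replicates 1 to 3 had been sorted for CD5+TCRβ+ cells, and the other mice had not. Experiment 3 held wild-type replicates 4 and 5 together with every OT-I and OT-II mouse, and every MHCI-/- and MHCII-/- mouse was in experiment 2. AND and F5 mice had replicate 1 in experiment 1 and replicate 2 in experiment 2. Among these 6 genotypes the sort and the Rag1 background cannot be told apart from the genotype family. Nor can the experiment, except within the AND and F5 family.

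EGR factors are immediate early genes. A TCR signal passes through the ERK kinases to serum response factor and its ternary complex partners, which switch on Egr1 within minutes, and calcium signals through NFAT add to the induction of Egr2 and Egr3. In the thymus EGR factors are known for their part in positive selection, with Id3 among their targets. NAB1 and NAB2 bind EGR proteins and repress transcription from their sites, and Nab2 is itself induced by EGR factors, which closes a negative feedback loop.

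In the mm10 (GRCm38) genome Egr2 lies on chromosome 10 at chr10:67535475-67542188 on the forward strand, Nab2 on the same chromosome at chr10:127660918-127668568 on the reverse strand, and Egr3 on chromosome 14 at chr14:70077203-70082614 on the forward strand. A promoter entry of RefSeq on GRCm38.p6 was matched for 2 of the 4 genes. The 250 bases before a start site are shown for Egr2 (chr10:67537619-67537868, forward strand) and Nab2 (chr10:127666704-127666953, reverse strand), because these are the matched factor and its corepressor, both of which rose in DP2 below. Both are written 5′ to 3′. Capitals mark a CArG box, the site that serum response factor binds, and matches to TGACG, the core of a CREB site, read on both strands (CGTCA on the other).
Egr2: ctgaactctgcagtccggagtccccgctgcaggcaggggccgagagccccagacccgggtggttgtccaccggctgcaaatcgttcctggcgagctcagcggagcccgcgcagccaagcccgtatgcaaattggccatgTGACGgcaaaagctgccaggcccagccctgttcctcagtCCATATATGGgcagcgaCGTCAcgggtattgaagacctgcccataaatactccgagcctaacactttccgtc
Nab2: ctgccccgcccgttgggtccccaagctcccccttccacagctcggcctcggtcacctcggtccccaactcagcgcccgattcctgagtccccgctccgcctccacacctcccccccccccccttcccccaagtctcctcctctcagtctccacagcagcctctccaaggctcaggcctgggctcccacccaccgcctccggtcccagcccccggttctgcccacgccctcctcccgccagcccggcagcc
In the Egr2 window the CArG box spanned the bases 72 to 63 before the start, between TGACG matches that began 111 and 55 bases before it. Of 5 RefSeq start sites of Egr2, 4 had a CArG box in this window, but 3 of these windows overlapped and held the same box, so that there were 2 distinct boxes. A CArG box was present in 1.47% of 32851 mouse promoter windows of the same length and TGACG in 17.8%. The Nab2 window held none of the motifs searched, which also included GCGNGGGCG, the site that EGR zinc fingers bind (present in 4.7% of windows), and TGACGTCA (1.55%). Both windows lie inside the annotated gene, since each of these starts is downstream of the outermost annotated start.

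The 19 lanes held 85389 barcodes with 9893333 to 43303999 RNA unique molecular identifiers (UMIs) each, and 69210 cells were kept. Of the 71355 distinct barcode sequences among the cells that passed quality filters, 695 occurred in more than 1 lane, 264 of them within an experiment. Per 1000000 UMIs (CPM), B2m RNA was at 47.1 and 48.9 in the MHCI-/- mice and at 403.0 to 1249 in the others. Rag1 RNA in the earliest stage was at 12.3 to 60.3 CPM in AND and F5 mice and at 227.3 to 3498 in the rest. Median depth differed among lanes, from 1519 to 7259 UMIs per cell. Cells were placed in 8 stages by surface protein alone (CD4, CD8, CD69, CD127 and TCRβ): DP1 (CD4+CD8hi CD69-CD127-), DP2 (CD69+CD127-), CD4+CD8lo (CD69+), DP3 (CD4+CD8hi CD69+CD127+TCRβ+), semimature (SM, CD69+) and mature (CD69-CD127+) CD4 and CD8 cells. Stage markers followed these gates, with mean Rag1 falling from 815.9 CPM in DP1 to 159.7 in DP2 and mean Zbtb7b, the CD4 lineage factor, at 83.2 in CD4 SM against 0.487 in CD8 SM. Which cells were left out of these gates, such as cycling and negative selection-like cells, was decided by clusters formed from RNA. After the data were seen, these clusters were formed again from 2 other random starts and once with the ICOS antibody left out of the cell filter, and values from these reclusterings are given beside the results of DP1 to DP3 that they moved most. Wild-type replicate 5, OT-I replicate 2 and OT-II replicate 2, all of experiment 3, stood apart. They gave 99.5% to 99.8% of the cells in 3 of the clusters, of 4595, 3336 and 2052 cells. These mice also gave 95.8% to 100% of the cells in several smaller clusters, of 183 to 2047 cells. Their lanes had median depths of 1519 to 3192.5 UMIs per cell. The tests were repeated without these 3 mice, also after the data were seen, and where a call of Egr1, Egr2 or Nab2 changed it is given. OT-II replicate 1 gave 95.6% of another cluster of 3003 cells. Levels are given as CPM, the UMIs of a gene among 1000000 UMIs summed over the cells of 1 mouse in 1 gate of at least 20 cells, and the mouse is the replicate.

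Among kept cells, Egr1, a gene of chromosome 18, was represented by 25557 UMIs in 10245 cells (14.8%), Egr2 by 5563 UMIs in 3353 cells (4.85%) and Nab2 by 25525 UMIs in 15291 cells (22.1%). Egr3 was close to undetected, with 85 UMIs in 81 cells (0.117%). Egr3 did not pass the filter on low counts in any comparison, so it was not tested, and its mean over mice stayed between 0.0249 CPM in DP3 and 0.578 in CD8 SM. In DP2 no Egr3 UMI was counted in any of the 5 wild-type mice, and 14 of all 17 mice had none. Of the 85 Egr3 UMIs, 18 fell in 18 of the 1996 cells of a cluster led by Nrgn, Xcl1, Tnfrsf9 and Nr4a1, named negative selection-like by its markers. The 13911 quiescent DP-like cells held 2. At this depth Egr3 counts are too few to tell its absence from a low level.

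Averaged over all mice, Egr1, Egr2 and Nab2 all rose as thymocytes became CD69+, were highest in DP2 or DP3, and were lowest in mature cells. In the unsorted wild-type mice alone, however, mean Egr2 and Nab2 were lower in DP1 (5.81 and 18.7 CPM) than in mature CD4 cells (9.05 and 38.96). Mean Egr1 was 106.5 ± 35.9 CPM in DP1 (SD, n = 17 mice) and 180.6 ± 70.1 in DP2 (n = 17). It was 132.2 ± 47.9 in CD4+CD8lo (n = 15), 142.5 ± 63.1 in DP3 (n = 15), 86.8 ± 32.8 in CD4 SM (n = 13), 76.5 ± 29.5 in CD8 SM (n = 11), 53.9 ± 31.0 in mature CD8 (n = 11) and 49.1 ± 17.3 in mature CD4 cells (n = 12). Over the same gates and mice, mean Egr2 was 19.96 ± 13.9 in DP1, 43.7 ± 31.99 in DP2, 31.1 ± 19.2 in CD4+CD8lo, 37.2 ± 31.9 in DP3, 16.9 ± 4.34 in CD4 SM, 13.3 ± 4.30 in CD8 SM, 9.93 ± 5.88 in mature CD8 and 9.15 ± 6.77 in mature CD4 cells. Mean Nab2 was 84.3 ± 58.6 in DP1, 157.1 ± 69.2 in DP2, 127.9 ± 55.8 in CD4+CD8lo, 163.9 ± 53.7 in DP3, 87.0 ± 25.8 in CD4 SM, 105.1 ± 62.5 in CD8 SM, 61.1 ± 30.6 in mature CD8 and 49.99 ± 16.1 in mature CD4 cells. For each gene the SDs of gates next to each other in this order of means overlapped, so that neighbours in this order were not told apart by these values. The tests within mice that follow cover the steps along each route, while DP3 was not tested against DP2, nor CD4 SM against CD8 SM.

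**Figure D1:**
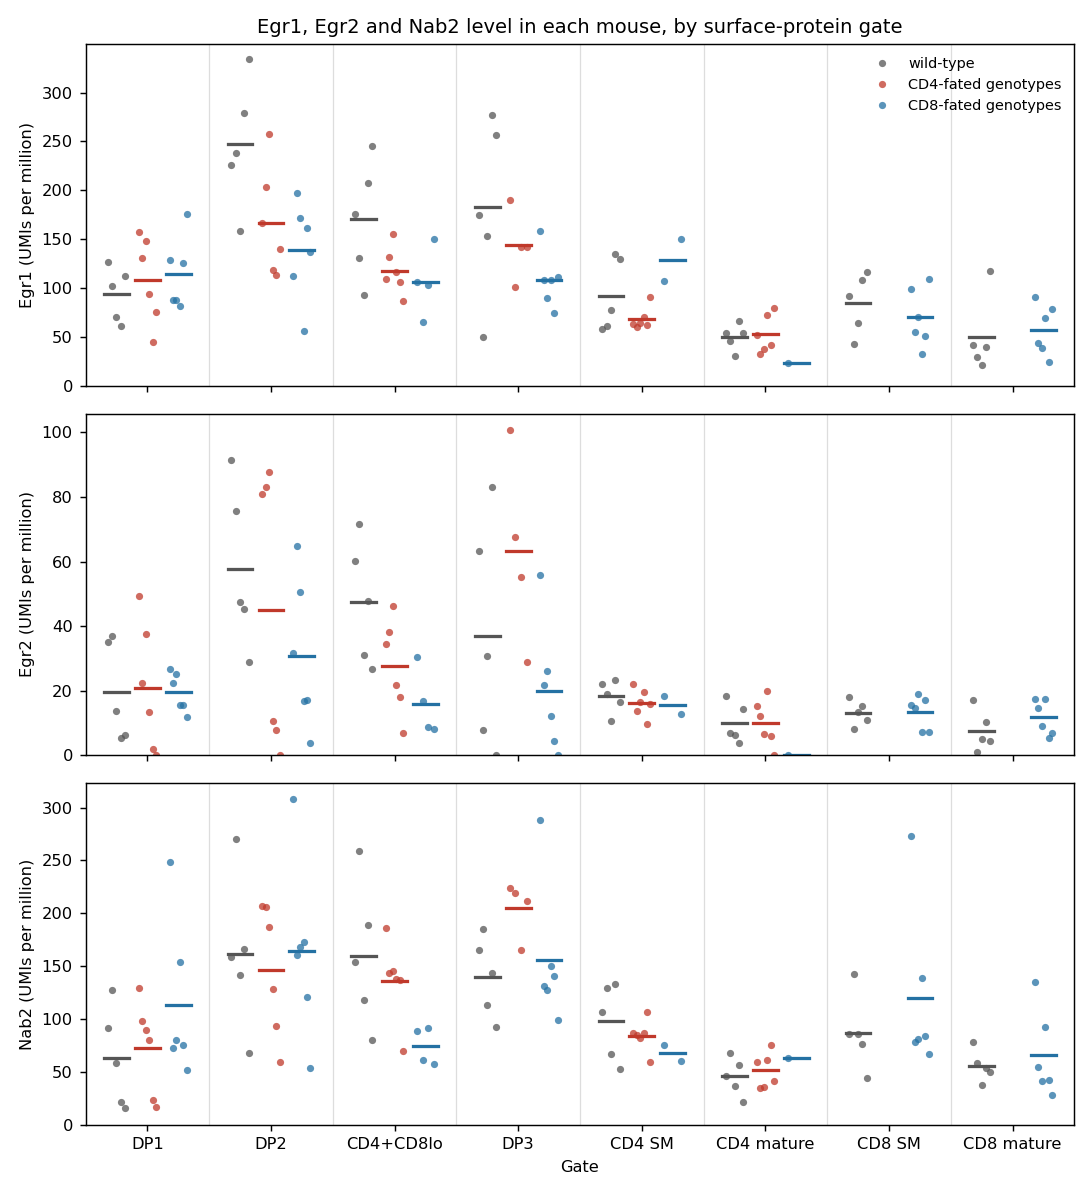
Level of Egr1, Egr2 and Nab2 (y axes, UMIs per 1000000 UMIs or CPM, each axis from 0) in each gate (x axis). Each point is 1 mouse, grey for wild-type, red for CD4-fated and blue for CD8-fated genotypes, and bars mark the mean of each group. Averaged over all mice, levels peaked in DP2 or DP3, where mean Nab2 was 157.1 and 163.9, and were lowest in mature cells.

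The step from DP1 to DP2 compares CD69- with CD69+ cells of the same mouse. DP1 was not uniform, since its largest cluster was signaled DP-like in some mice and quiescent DP-like or unnamed in others. The step thus did not start from like cells in every mouse, as given below for wild-type mice. In the 5 wild-type mice, replicates 1 to 5 in order, Egr2 was 35.0, 36.9, 13.8, 5.36 and 6.26 CPM in DP1 and 91.6, 75.6, 47.3, 45.21 and 28.9 in DP2. Every wild-type mouse was higher in DP2, although the highest DP1 values exceeded the lowest DP2 value. In CD4-fated mice Egr2 ranged from 0 to 49.2 in DP1 (median 17.9) and from 0 to 87.6 in DP2 (median 45.8), and in CD8-fated mice from 11.9 to 26.8 (median 19.1) and from 3.802 to 65.0 (median 24.4). Wild-type Nab2 was 91.1, 127.2, 58.1, 21.8 and 15.6 in DP1 and 158.7, 270.5, 142.0, 166.5 and 68.3 in DP2, and wild-type Egr1 was 126.1, 101.5, 70.4, 61.3 and 112.1 in DP1 and 225.9, 237.7, 157.8, 279.1 and 334.1 in DP2. Egr1 and Nab2 also rose in each wild-type mouse, and for Egr1 the DP1 and DP2 ranges of wild-type mice did not overlap.

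Of 7464 genes tested between DP2 and DP1, 3180 passed an adjusted p of 0.05 (42.6%), and Egr1, Egr2 and Nab2 were among them. By edgeR's quasi-likelihood test with the mouse as a block, Egr2 was 1.32 higher on the log2 scale (SE 0.17, adjusted p 2.02e-07, n = 17), Nab2 1.15 higher (SE 0.145, 1.2e-07) and Egr1 0.91 higher (SE 0.136, 2.05e-06). Under the reclusterings the differences were larger and all called, at 1.52 to 1.71 for Egr2, 1.322 to 1.496 for Nab2 and 1.11 to 1.24 for Egr1. Nab2 was higher in DP2 in 17 of 17 mice, Egr1 in 14 of 17, and Egr2 in 14 of 17 with 1 mouse at 0 in both gates. The mice in which Egr1 was lower in DP2 were both F5 mice and OT-I replicate 2. Sums do not tell more cells with a transcript from more transcript per cell. With each cell thinned to 2000 UMIs, the share of cells with at least 1 Egr1 UMI averaged 12.1% over 17 mice in DP1 and 21.5% over 16 in DP2, that of Egr2 3.05% and 6.95%, and that of Nab2 12.6% and 23.5%. Thinning kept 15165 DP1 and 4207 DP2 cells and left out 5865 and 538 as too shallow, and without thinning the DP2 shares were 25.6%, 9.58% and 34.9%.

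Most genes of the pathway that were tested were also called in this step, in lists chosen with earlier results of these data known, and 42.6% of all genes tested were called too. Of 16 immediate early and TCR response genes tested, 15 were higher in DP2 and 1 lower, led by Pdcd1 (2.16 on the log2 scale), which encodes the inhibitory receptor PD-1, Itm2a (1.90), Nr4a1 (1.36), the orphan nuclear receptor NUR77, and Cd69 (1.19), whose protein defined the gate. The median of that list was 0.71, compared with -0.01 over all genes tested. Of 7 ERK pathway feedback inhibitors 6 were higher and none lower (median 0.38), led by the ERK phosphatase gene Dusp6 (0.83) and by Dusp1 (0.78). Of 5 genes for serum response factor and its partners 3 were higher and none lower (median 0.19), Srf by 0.37, a share near that of all genes. Of 10 genes known as EGR targets in lymphocytes 7 were higher and 3 lower (median 0.47), with Id2 (2.31) and Bcl2 (1.49), a survival gene, among the higher. Nab1, the paralog of Nab2, rose by 0.38 (SE 0.078, adjusted p 0.000153). Heat shock and other genes known to rise when tissue is dissociated also moved. Of 9 tested 5 were higher and 1 lower (median 0.34), a larger share than that of all genes. Summed over 14 such genes, the level was higher in DP2 in 16 of 17 mice, with medians of 3969 CPM in DP1 and 4119 in DP2. Their part in the change of Egr1 was not tested. Summed B cell markers were higher in DP2 in 0 of 17 mice, with medians of 431.0 in DP1 and 212.9 in DP2. The summed level of 5 negative selection markers, with Pdcd1 among them, was higher in DP2 in 17 of 17 mice, with a median of 89.4 CPM in DP1 (47.4 to 180.2) and 160.8 in DP2 (75.3 to 464.7). Negative selection-like cells are high in the 3 genes, as given below, and the part of such cells in the step was not tested.

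From DP2 to CD4+CD8lo, Egr1 and Egr2 fell whereas Nab2 did not pass the test. Of 7713 genes 1891 passed (24.5%). Egr1 fell by 0.53 on the log2 scale (SE 0.083, edgeR adjusted p 1.26e-05, lower in 14 of 15 mice), from a mean of 193.4 to 132.2 CPM. Egr2 fell by 0.54 (SE 0.14, adjusted p 0.00446, lower in 10 of 15 mice), from 46.3 to 31.1. In experiment 3 Egr2 was instead higher in CD4+CD8lo in 4 of 6 mice, with means of 17.1 and 19.4, and DESeq2 did not call Egr2 (adjusted p 0.0586, within a range of 1.5e-06 to 0.317 over all alternatives). Nab2 changed by -0.18 (SE 0.109, adjusted p 0.243), with 6 of 15 mice higher. By experiment, Nab2 was higher in CD4+CD8lo in 5 of 6 mice of experiment 3 (means of 93.66 and 104.2), in 1 of 7 of experiment 2 (180.3 and 136.2) and in 0 of 2 of experiment 1 (182.8 and 169.6). It was called as lower with the ICOS antibody left out (-0.26, adjusted p 0.0341) and without TMM (0.0407), within a range of 0.0341 to 0.882 over all alternatives. The size of the Nab2 change differed between lineages, as given below. Markers of other cells also fell in this step. Summed Treg and B cell markers were each lower in CD4+CD8lo in 5 of 5 wild-type, 6 of 6 CD4-fated and 4 of 4 CD8-fated mice. Wild-type medians of Treg markers were 625.7 CPM in DP2 and 299.9 in CD4+CD8lo. Cycling markers were lower in 5 of 5, 6 of 6 and 3 of 4 mice. The part of such cells in the step was not tested.

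CD4-fated cells leave CD4+CD8lo for CD4 SM and mature CD4, and all 3 detected genes declined on the way. From CD4+CD8lo to CD4 SM (1316 of 8152 genes passed, 16.1%), Egr1 fell by 0.81 (SE 0.092, edgeR adjusted p 1.67e-07), Egr2 by 0.85 (SE 0.168, 0.000431) and Nab2 by 0.63 (SE 0.082, 1.2e-06) in the 6 CD4-fated mice. Nab2 was lower in 6 of 6 mice, Egr1 and Egr2 in 5 of 6. In this step 8 of 18 immediate early and TCR response genes fell and 1 rose. Of 7 ERK feedback inhibitors 3 fell and none rose, led by Dusp6 (-1.01). From CD4 SM to mature CD4 (786 of 7599 genes, 10.3%), Nab2 fell by 0.73 (SE 0.103, adjusted p 6.61e-07, 6 of 6 mice), from a mean of 84.4 to 51.4. Egr1 fell by 0.40 (SE 0.109, adjusted p 0.0102, 5 of 6 mice), a call that was lost without MHCI-/- replicate 1 (0.0899) or replicate 2 (0.154), with the ICOS antibody left out (0.0664) and with DESeq2 (0.128), within a range of 0.00179 to 1.0 over all alternatives. Egr2 differed by -0.53 (SE 0.224) with an adjusted p of 0.142, and it was called with raised CD69 and CD127 thresholds (-0.65, adjusted p 0.0409, within a range of 0.0409 to 1.0).

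CD8-fated cells pass from CD4+CD8lo through DP3 to CD8 SM, and in these mice Nab2 was higher in DP3 than in CD4+CD8lo. Nab2 was 61.6 and 89.0 CPM in CD4+CD8lo of the MHCII-/- mice (replicates 2 and 1) and 127.7 and 131.1 in DP3. In the OT-I mice it was 57.7 and 91.5 in CD4+CD8lo (replicates 2 and 1) and 99.0 and 140.7 in DP3. All 4 mice were higher in DP3, and the ranges of the gates did not overlap. Of 7925 genes 594 passed (7.5%), and Nab2 was 0.89 higher (SE 0.117, edgeR adjusted p 1.01e-11). Without each mouse in turn the Nab2 difference lay between 0.68 and 0.96, with adjusted p of at most 0.0156. The size depended on the clusters. Under the reclusterings it was 0.57 to 0.61, with adjusted p of at most 4.19e-05, and Nab2 in CD4+CD8lo of MHCII-/- replicate 2 was 87.6 to 91.8 in place of 61.6. All 4 mice were still higher in DP3, but with the ICOS antibody left out the gates overlapped, with CD4+CD8lo reaching 101.7 and DP3 starting at 99.0. F5 mice did not enter, because they held only 3 and 0 CD4+CD8lo cells. The other mice, which this test left out, are given as a description. In CD4-fated mice with a DP3 sum Nab2 was higher in DP3 in 4 of 4, with means of 153.0 in CD4+CD8lo and 205.3 in DP3. These DP3 sums held only 22 to 87 cells, and their largest cluster was not that of the MHCII-/- mice. Among the tested mice, the OT-I DP3 sums held only 29 and 25 cells (replicates 1 and 2). The largest DP3 cluster of OT-I replicate 2 was also not that of the MHCII-/- mice. The paper describes a second DP phase for CD8-fated thymocytes only. Whether the CD4-fated values belong to a like step was not tested. In wild-type mice it was higher in 2 of 5 and lower in 3, with means of 160.0 and 140.2. Egr1 differed by 0.21 (SE 0.119, adjusted p 0.337), although its mean was lower in DP3 (95.8 against 106.4). It was higher in DP3 in both MHCII-/- mice, with means of 85.92 and 98.66, and lower in both OT-I mice, with 126.8 and 93.03, and this contrast of families was not tested. Egr1 was called with at least 50 cells per sum (0.0236) and with raised CD69 and CD127 thresholds (0.0499), within a range of 0.0236 to 1.0 over all alternatives. The minimum of 50 cells left only the MHCII-/- mice, since both OT-I mice had fewer DP3 cells. Egr2 differed by 0.21 (SE 0.26, adjusted p 0.747), although it was lower in DP3 in 3 of 4 mice, with means of 15.97 and 13.1. Under the reclusterings the difference was -0.095 to 0.111 for Egr1 and -0.171 to 0.003 for Egr2, none of them called.

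From DP3 to CD8 SM (1063 of 5099 genes, 20.8%), Nab2 fell by 0.46 (SE 0.099, edgeR adjusted p 0.00025) and Egr1 by 0.46 (SE 0.12, 0.00273), each lower in 6 of 6 CD8-fated mice. Without MHCII-/- replicate 1 both calls were lost (adjusted p 0.0548 and 0.176), as they were with DESeq2 (0.0507 and 0.0681), and that of Egr1 was also lost with lowered thresholds (-0.30, adjusted p 0.124), within ranges of 1.1e-05 to 0.966 and 0.000107 to 0.771. Egr2 did not pass the filter on low counts there. From CD8 SM to mature CD8 (720 of 6848 genes, 10.5%), Nab2 fell by 0.77 (SE 0.093, adjusted p 1.12e-08), lower in 6 of 6 mice, from a mean of 120.3 to 65.8. Egr1 fell by 0.48 (SE 0.119, adjusted p 0.00365, 5 of 6 mice), a call lost without MHCII-/- replicate 2 (0.294), with raised thresholds (0.132) and with DESeq2 (0.50), within a range of 9.1e-05 to 1.0. Egr2 differed by -0.49 (SE 0.226, adjusted p 0.186). When the mouse was left out of the model, the calls from DP1 to DP2 and that of Egr1 from DP2 to CD4+CD8lo held, and the other stage calls of these genes did not.

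**Figure D2:**
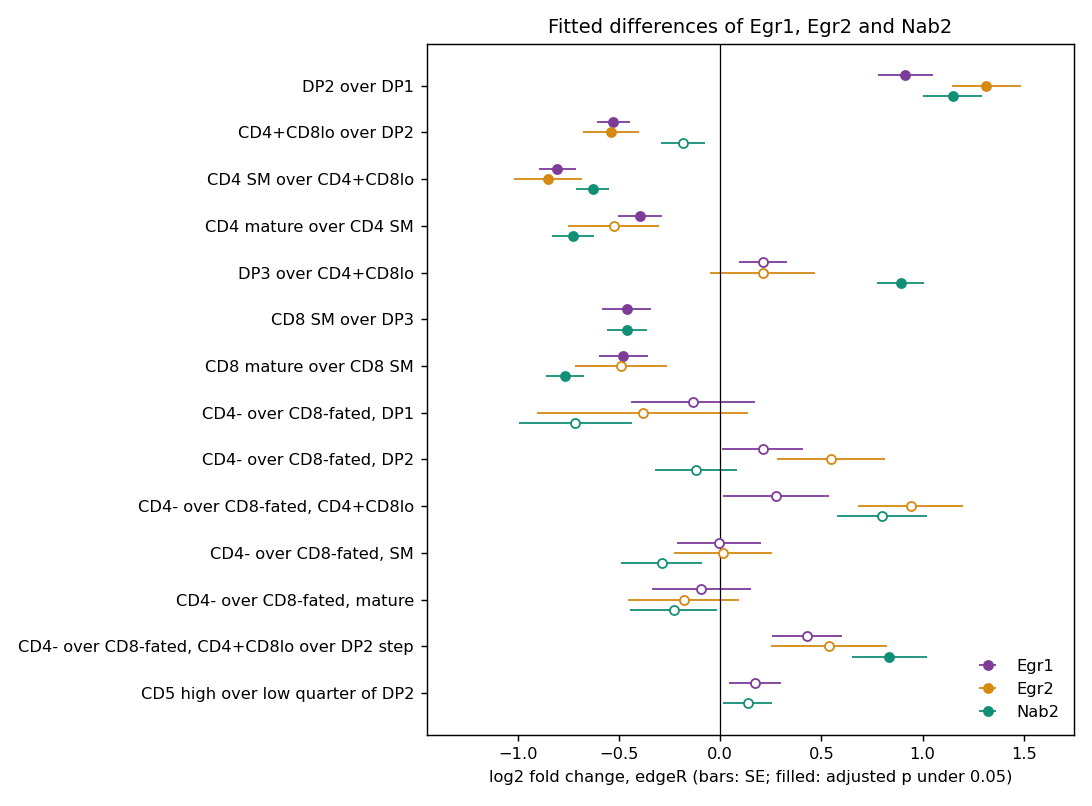
Fitted log2 fold change (x axis) of Egr1, Egr2 and Nab2 in each comparison (y axis). Bars are the SE, and filled points passed an adjusted p of 0.05 by edgeR. All 3 genes were higher in DP2 than in DP1, by 0.91 to 1.32, and Nab2 alone was called from CD4+CD8lo to DP3 (0.89) and for the difference between lineages in the step from DP2 to CD4+CD8lo (0.84).

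The study set CD4-fated against CD8-fated thymocytes at like stages to ask when the lineages part. It compared modelled expression of single cells in bins of pseudotime, an inferred order of maturation, and dropped cells not assigned to the expected lineage. In these bins it reported Egr1 higher in CD4-fated cells early, within DP2, and in CD8-fated cells later, within DP3. In the present fits all gated cells of a mouse took the lineage of its genotype, so the comparisons are not alike. The fits within a stage took the genotype family (AND with F5, MHCI-/- with MHCII-/-, OT-II with OT-I) as a covariate. None of the 3 genes passed in DP1, DP2, CD4+CD8lo, semimature or mature cells, the stages tested. DP3 was not tested between lineages. Its medians in 4 CD4-fated mice, none of them OT-II, were 142.0 CPM for Egr1, 61.37 for Egr2 and 215.8 for Nab2. In 6 CD8-fated mice they were 107.9, 16.93 and 135.9, and the ranges of the lineages overlapped for each gene. In DP1 0 of 8647 genes passed by edgeR (0.0%), 363 had an unadjusted p under 0.05 and DESeq2 called 8. The DP1 difference, CD4-fated over CD8-fated, was -0.13 (SE 0.307) for Egr1, -0.38 (SE 0.522) for Egr2 and -0.72 (SE 0.278) for Nab2, with adjusted p of 1.0 for each. With no filter on low counts Nab2 was called there (-0.73, edgeR adjusted p 0.0132). In DP2 28 of 6811 genes passed (0.411%), and the differences were 0.21 (SE 0.2, adjusted p 0.93) for Egr1, 0.55 (SE 0.268, 0.684) for Egr2 and -0.12 (SE 0.202, 0.981) for Nab2. In semimature cells 864 of 7983 genes passed (10.8%) and in mature cells 8.12% of 6955. For the 3 genes the semimature and mature differences lay between -0.29 and 0.01, with adjusted p of 0.419 to 0.995.

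In CD4+CD8lo, Nab2 was 143.3 and 145.3 CPM in the MHCI-/- mice, 137.1 and 69.5 in the OT-II mice and 185.7 and 137.6 in the AND mice, against 89.0 and 61.6 in the MHCII-/- mice and 91.5 and 57.7 in the OT-I mice. Only OT-II replicate 2 lay within the range of the 4 CD8-fated mice. Egr2 was 38.0 and 46.2 in the MHCI-/- mice, 18.0 and 6.95 in the OT-II mice and 34.4 and 21.6 in the AND mice, against 30.3 and 16.8 in the MHCII-/- mice and 8.63 and 8.13 in the OT-I mice. Of 8231 genes 56 passed (0.68%). The fitted difference was 0.80 for Nab2 (SE 0.221) and 0.94 for Egr2 (SE 0.26), each with an edgeR adjusted p of 0.153, and 0.28 for Egr1 (SE 0.261, 0.909). Nab2 was called without OT-I replicate 1 (0.0334) and without OT-II replicate 2 (0.0485), and Nab2 and Egr2 were called with no filter on low counts (0.0245 and 0.0283). Without the 3 mice that stood apart both were also called, Nab2 at 0.90 (SE 0.16, adjusted p 0.00571) and Egr2 at 1.04 (SE 0.245, 0.0301) in 5 against 3 mice, where the count of genes called rose from 56 to 287. Under the reclusterings the difference was 0.59 to 0.65 for Nab2, 0.66 to 0.84 for Egr2 and 0.034 to 0.23 for Egr1, and none was called. Over all alternatives the adjusted p of Nab2 ranged from 3.3e-07 to 1.0 and that of Egr2 from 0.000838 to 0.734. The EGR target genes Cd5 (1.42) and Id3 (1.06) were 2 called higher of 12 tested, with none lower, and Cd6 (1.33) was the 1 called of 18 immediate early and TCR response genes. The F5 mice had no sum in this gate, so that AND mice, though in the fit, carried no difference between lineages. Summed B cell markers in this gate did not overlap, at 58.4 to 105.5 CPM in CD4-fated and 119.3 to 203.7 in CD8-fated mice. Sums of the other cell type markers did overlap, and the part of such cells was not tested. The largest cluster of this gate also differed between MHCI-/- and MHCII-/- mice, as given below.

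The step from DP2 to CD4+CD8lo differed between lineages for Nab2. Nab2 went from 160.4 to 89.0 and from 167.9 to 61.6 in the MHCII-/- mice, from 121.1 to 91.5 in OT-I replicate 1 and from 53.2 to 57.7 in OT-I replicate 2. It went from 205.6 to 143.3 and from 186.8 to 145.3 in the MHCI-/- mice, from 93.7 to 137.1 and from 59.1 to 69.5 in the OT-II mice, and from 206.8 to 185.7 and from 128.7 to 137.6 in the AND mice. Both MHCII-/- mice thus had the steepest drops, and both OT-II mice had more Nab2 in CD4+CD8lo. Of 8438 genes 457 differed between lineages in this step (5.42%), and the difference of Nab2 was 0.84 on the log2 scale, higher in CD4-fated cells (SE 0.186, edgeR adjusted p 0.00219, 6 against 4 mice). Without MHCII-/- replicate 2 it was 0.51 and not called (adjusted p 0.205), nor was it with DESeq2 (0.0872) or with cells of all clusters in the gates (0.125), within a range of 7.4e-07 to 1.0 over all alternatives. Under the reclusterings it was smaller, at 0.61 to 0.69, and called each time (adjusted p 0.0094 to 0.0239). The difference was 0.43 for Egr1 (SE 0.174, adjusted p 0.177) and 0.54 for Egr2 (SE 0.286, 0.378), and without OT-I replicate 2 Egr1 was called (0.60, adjusted p 0.0156, within a range of 0.00131 to 1.0). Without the 3 mice that stood apart Egr1 was called as well (0.61, adjusted p 0.0198), and Nab2 was at 0.91 (0.00145). Under the reclusterings these differences were 0.157 to 0.397 and 0.26 to 0.502, and none was called. In the same test 10 of 17 immediate early and TCR response genes were called, all of them higher in CD4-fated cells, led by Nr4a1 (1.24), Ier5 (1.21) and Cd6 (1.17). The median of that list was 0.65, compared with 0.00 over all genes. Of 12 EGR targets 4 were higher and none lower (Tnfrsf9 by 2.75, Nrgn by 1.16, Cd5 by 1.14 and Id3 by 1.03), and of 7 ERK feedback inhibitors 1 was higher (Dusp2, 0.74). Nr4a1, Tnfrsf9 and Nrgn are also among the genes that lead the negative selection-like cluster. The summed level of 5 negative selection markers was lower in CD4+CD8lo than in DP2 in 4 of 4 CD8-fated mice, with medians of 217.7 CPM in DP2 (136.8 to 319.4) and 132.0 in CD4+CD8lo (129.8 to 299.9). It was higher in CD4+CD8lo in 4 of 6 CD4-fated mice, with medians of 135.75 (75.28 to 210.3) and 117.0 (98.35 to 209.9), and the part of such cells in this difference was not tested. Nor was the part of the different clusters that made up CD4+CD8lo in MHCI-/- and MHCII-/- mice, given below.

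**Figure D3:**
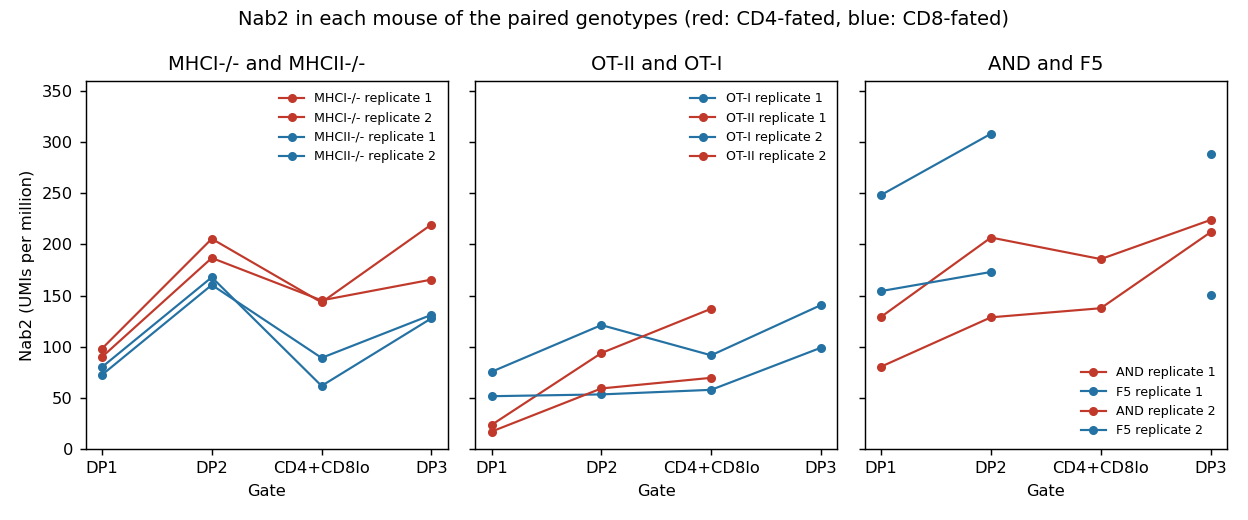
Nab2 (y axis, CPM) in DP1, DP2, CD4+CD8lo and DP3 (x axis) of each mouse of the paired genotypes. Each line is 1 mouse, red for CD4-fated and blue for CD8-fated genotypes, and gates of fewer than 20 cells are left out. In CD4+CD8lo the MHCI-/- mice lay at 143.3 and 145.3 and the MHCII-/- mice at 89.0 and 61.6, while the OT-II and OT-I mice overlapped.

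The genotype families did not go the same way. MHCI-/- and MHCII-/- mice were sorted alike within 1 experiment, and a fit of these 2 against 2 mice was added after the data were seen. In CD4+CD8lo of these mice 1189 of 8627 genes passed (13.8%), among them Nab2 (1.11 higher in MHCI-/-, SE 0.141, edgeR adjusted p 3.3e-07), Egr1 (0.94, SE 0.148, 1.5e-05) and Egr2 (1.09, SE 0.229, 0.000838). Egr1 was 131.8 and 155.2 CPM in CD4+CD8lo of the MHCI-/- mice and 106.2 and 65.6 in that of the MHCII-/- mice. The CD4+CD8lo cells of these genotypes lay largely in different clusters. In the MHCI-/- mice 66.9% and 76.7% were in cluster 6, led by Itm2a. In the MHCII-/- mice 71.7% and 77.9% were in cluster 4, led by Tesc. Over all mice, Nab2 was 200.2 CPM in cluster 6 and 101.8 in cluster 4, Egr1 168.7 and 87.66, and Egr2 56.14 and 17.04. The part of this make-up in the differences was not tested. In DP2 524 of 8869 genes passed (5.91%), with Egr2 0.58 higher (SE 0.144, adjusted p 0.00502) and Egr1 0.34 higher (SE 0.101, 0.0289). In DP1 581 of 8730 passed (6.66%), with Egr1 0.71 higher (SE 0.123, 6.3e-05), opposite in sign to the fit of all families. For the change between DP2 and CD4+CD8lo 658 of 9036 genes passed (7.28%), with Nab2 at 0.92 (SE 0.15, 7.4e-07) and Egr1 at 0.61 (SE 0.143, 0.00131). Under the reclusterings the CD4+CD8lo differences of these mice were smaller but called, at 0.70 to 0.79 for Nab2, 0.55 to 0.82 for Egr1 and 0.71 to 0.90 for Egr2. For the step Nab2 was at 0.55 to 0.60 and called, and Egr1 was not called with the ICOS antibody left out (0.21, adjusted p 0.469).

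In the OT family the DP1 levels ran the other way. Egr1 was 44.8 and 75.9 CPM in OT-II and 125.8 and 176.2 in OT-I, Nab2 23.4 and 16.9 against 75.4 and 51.5, and Egr2 1.99 and 0 against 15.7 and 11.9. The values of the genotypes, with 2 mice each, did not overlap for any of these genes. The share of all genes that separated these mice in this way is not given. The DP1 cells of these mice lay largely in different clusters. Of the 2481 DP1 cells of OT-II replicate 1, 88.8% were in the cluster made almost wholly of that mouse, and 82.2% of the 974 of OT-II replicate 2 were in 1 that it shared with OT-I replicate 2 and wild-type replicate 5. That cluster held 54.1% of the 218 DP1 cells of OT-I replicate 2, and 38.1% of the 323 of OT-I replicate 1 were in yet another. In a fit of the OT mice alone, 2 against 2 and also added after the data were seen, 15 of 8868 genes passed in DP1 (0.169%), and none of the 3 genes was among them. Egr1 differed by -1.43 on the log2 scale, OT-II over OT-I (SE 0.424, edgeR adjusted p 0.448), Nab2 differed by -1.77 (SE 0.349, 0.174) and Egr2 by -3.38 (SE 0.751, 0.233). Over all alternatives in DP1 the adjusted p ranged from 6.3e-05 to 1.0 for Egr1, from 0.0132 to 1.0 for Nab2 and from 0.233 to 1.0 for Egr2. In DP2 and CD4+CD8lo the OT-II and OT-I values of each gene overlapped, and neither Egr1 nor Nab2 was called where 8 of 5864 (0.136%) and 1 of 7853 genes (0.0127%) passed. For the change between these stages 145 of 7378 genes passed in OT mice (1.97%), and Nab2, at 0.90 (SE 0.314, adjusted p 0.127), did not. Markers of other cell types also differed between the OT genotypes in DP1. The summed level of 5 gamma-delta T cell markers, none of them at 0, was 131.4 and 148.7 CPM in OT-II and 562.5 and 344.5 in OT-I, and that of 5 negative selection markers was 55.7 and 71.6 against 107.3 and 180.2. Cycling markers, at 40.7 and 123.4 against 69.6 and 267.3, overlapped. Over all families the gamma-delta T markers ranged from 48.5 to 535.5 among CD4-fated mice (median 140.05) and from 43.2 to 562.5 among CD8-fated mice (median 400.8), and the cycling markers had medians of 33.8 and 72.5. The part of such cells in the differences was not tested. Egr2 was low in both OT genotypes, at 0 to 17.1 in DP2, while unsorted wild-type replicates 4 and 5 of the same experiment had 45.21 and 28.9. In the AND and F5 family, on the Rag1-/- background, Nab2 was high in F5 replicate 1, at 248.5 in DP1, 308.4 in DP2 and 272.8 in CD8 SM, and at 154.4, 173.1 and 138.4 in replicate 2. The AND values were 129.2 and 80.5 in DP1 and 206.8 and 128.7 in DP2. In fits of these mice alone 25 of 9630 genes passed in DP1 (0.26%), 8 of 6129 in DP2 (0.131%) and 214 of 7438 in semimature cells (2.88%). Nab2 was called in semimature cells, at -1.13 on the log2 scale, AND over F5 (SE 0.237, edgeR adjusted p 0.0242, within a range of 0.0242 to 1.0 over all alternatives), and none of the 3 genes was called in DP1 or DP2. In DP1 all families gave Nab2 ranges that did not overlap, with CD4-fated mice lower in the OT and AND-F5 families and higher in the MHC family. Here too the share of all genes with such ranges is not given. The summed level of 14 dissociation stress genes overlapped between lineages, with medians in DP2 of 3911 CPM in CD4-fated mice (2983 to 4640) and 4520 in CD8-fated mice (2730 to 6492), and its part in these differences was not tested.

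Among wild-type mice, sorted replicates 1 to 3 and unsorted replicates 4 and 5 differed, and the sort and the experiment cannot be told apart. In DP2 mean Egr1 was 207.1 in the sorted and 306.6 in the unsorted mice, and in CD4 SM 65.3 and 132.2, with no overlap between the mice in either gate. In DP1, by contrast, Nab2 was lower in the unsorted mice, at 18.7 against 92.2, as was Egr2, at 5.81 against 28.5, again with no overlap. The share of all genes that separated the sorted from the unsorted mice in this way is not given. The DP1 cells of these mice also lay in different clusters. The largest was signaled DP-like in sorted replicates 1 to 3, with 42.2%, 54.5% and 46.6% of the DP1 cells. It was quiescent DP-like in replicates 4 and 5, with 65.5% and 86.8%. Signaled and quiescent DP-like cells differed in Egr2 and Nab2, as given below, and the part of this make-up was not tested. Markers of other cells moved with the split as well. Summed cycling markers were 71.7 and 818.0 CPM in DP1 of unsorted replicates 4 and 5, against 25.12 to 45.89 in the sorted mice, and 45.92 and 668.1 against 15.57 to 43.82 in DP2. Negative selection markers in DP2 were 147.8 and 464.7, against 137.4 to 210.0, and erythrocyte markers in DP1 174.5 and 215.6, against 0 in each sorted mouse. Replicate 5 had the highest of each of these marker values. Egr1 in DP2 was 279.1 in replicate 4 and 334.1 in replicate 5. The part of other cells in these levels was not tested.

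CD5 protein rises with the strength of the TCR signal, so that DP2 cells of high and low CD5 were compared within each of 14 mice. Neither Egr1 nor Nab2 passed, and Egr2 fell below the filter on low counts. Of 3021 genes tested, 396 passed (13.1%). Mean Egr1 was 175.0 CPM in the 1 of 4 parts with the lowest CD5 and 191.8 in that with the highest (0.17 on the log2 scale, SE 0.129, edgeR adjusted p 0.459, higher in 9 of 14 mice). Mean Nab2 was 143.1 and 161.1 (0.13, SE 0.122, adjusted p 0.555, higher in 7 of 14 mice), and mean Egr2 40.9 and 46.4 (higher in 9 of 14 mice). The CD5 sets did differ in other TCR response genes, of which 6 of 11 tested were higher and 3 lower, led by Itm2a (1.59), Gata3 (1.03), which promotes the CD4 fate, and Tox (0.89). Of 7 EGR targets Cd5 (1.12), whose protein defined the sets, and Id3 (0.75) were higher and none was lower. The experiments did not go the same way. Egr1 was higher at high CD5 in 5 of 5 mice of experiment 3, with means of 130.8 and 223.7, in 4 of 7 of experiment 2 (182.0 and 185.7) and in 0 of 2 of experiment 1 (261.1 and 133.2), and this contrast was not tested. Of the 14 mice, 7 had been sorted for CD5+ cells before the split, and Egr1 was higher at high CD5 in 3 of these 7 and in 6 of the 7 unsorted mice. These sums held 1162 cells on each side, with 745 Egr1 UMIs at low and 908 at high CD5.

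Clusters of cells formed from RNA, with these genes and Egr4 and Nab1 left out of the clustering, were compared as a description. Signaled DP-like cells were again high, whereas quiescent DP-like cells were lower in all 3 genes than mature SP-like cells. In the wild-type mice mean Egr2 was 65.8 ± 15.7 CPM in signaled DP-like cells (SD, n = 4 mice), 57.4 ± 14.0 in an unnamed cluster led by Itm2a, Id2, Ckb and Cd40lg (n = 4), 50.7 ± 25.4 in negative selection-like cells (n = 5) and 1.59 ± 1.66 in quiescent DP-like cells (n = 5). For Nab2 the same clusters had 186.1 ± 45.06, 211.6 ± 58.8, 155.4 ± 80.8 and 4.72 ± 3.74. Egr1 was 249.1 ± 85.4 in signaled DP-like, 163.2 ± 60.6 in negative selection-like and 29.8 ± 17.2 in quiescent DP-like cells. Treg-like cells had 65.4 ± 24.6 for Egr1, 17.7 ± 5.67 for Egr2 and 47.4 ± 14.4 for Nab2 (n = 4), and mature SP-like cells had 55.4, 11.1 and 64.0, a difference that was not tested. The mature SP-like cluster was named by markers among its leading genes, yet it was led by Gm12840, Slfn1, Ifi27l2a and Igfbp4, and its mean standardized level was higher for interferon markers (2.05) than for mature SP markers (1.4). Cycling-like cells were low in all 3 genes, at 21.9, 2.90 and 19.5. The erythrocyte-like cluster also held UMIs of these genes, at 159.9 ± 110.5 for Egr1 (n = 3), resting on 105 Egr1 UMIs in 739 cells with a median depth of 870 UMIs per cell. The share of background UMIs was not estimated. After thinning to 2000 UMIs, an Egr2 UMI was found in 243 of 2566 signaled DP-like cells (9.47%), compared with 25 of 6797 quiescent DP-like cells (0.368%), 1 of 199 DN-like cells and 0 of 39 B-like cells.

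**Figure D4:**
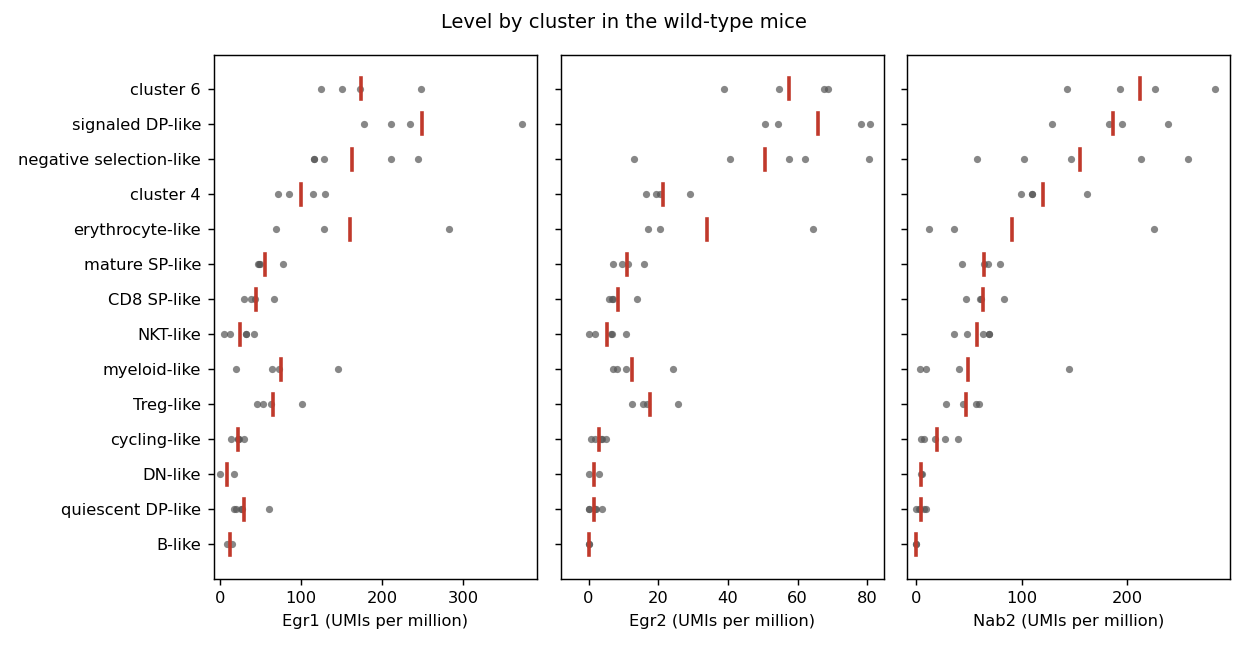
Level of Egr1, Egr2 and Nab2 (x axes, CPM) in clusters of wild-type thymocytes (y axis, ordered by Nab2). Points are mice with enough cells in the cluster and red bars their mean. Signaled DP-like, negative selection-like and the Itm2a-led cluster 6 were high, with mean Egr2 of 50.7 to 65.8, and quiescent DP-like cells low, at 1.59.

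Within a gate, Egr1 was found more often in cells that also held Egr2. In wild-type DP2 cells thinned to 2000 UMIs, Egr1 was detected in 73.4% of cells with an Egr2 UMI and in 23.0% of cells without one (means of 5 mice, 78 cells with both). The shares were 77.1% and 7.94% in DP1, 67.8% and 15.2% in CD4+CD8lo, and 41.0% and 8.98% in CD4 SM. In each gate the share was higher with Egr2 in 5 of 5 mice. Some mice had few cells with Egr2. In DP2 the share with Egr2 ranged from 42.9% to 100% over mice, with 113 such cells in all. Replicate 5 gave the 100% from 2 such cells among 56. In DP1 replicate 3 gave 100% from 3 such cells. Nab2 was detected in 32.6% of DP2 cells with Egr1 and in 20.04% of those without. The shares were 23.9% and 7.28% in DP1, 31.9% and 19.88% in CD4+CD8lo, and 21.2% and 16.4% in CD4 SM, and in each gate the share was higher with Egr1 in 5 of 5 mice. Cells of 1 gate differ in stage and in depth before thinning, and these shares are a description.

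**Figure D5:**
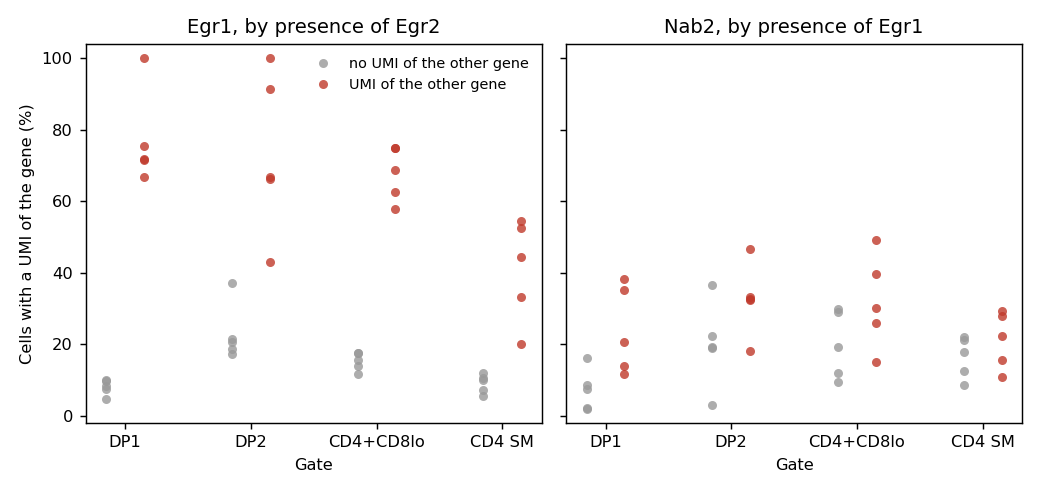
Share of wild-type cells with a UMI of Egr1 by presence of Egr2 (left) and of Nab2 by presence of Egr1 (right), in % of cells thinned to 2000 UMIs (y axis), by gate (x axis). Each point is 1 mouse, red for cells with and grey for cells without a UMI of the other gene. In DP2 the means were 73.4% and 23.0% for Egr1, and 32.6% and 20.04% for Nab2.

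Over 40 sums of the 5 wild-type mice and 8 gates, with log2 levels centred within each mouse, Egr1 correlated with Nab2 at r = 0.82 and with Egr2 at 0.71, and Egr2 with Nab2 at 0.61. The sums share mice, libraries and gates, so these values are descriptions. Of 7639 genes, those with the pattern most like Egr1 were Sh3bp2 (0.92), St13 (0.92), Tox (0.91), Gm43352 (0.89) and Hivep3 (0.89). Those most like Nab2 were Pfn1 (0.91), Actg1 (0.91), Trp53 (0.91), Hmgn1 (0.86) and Eif4a1 (0.86). Those most like Egr2 were Abhd8 (0.84), Rcc2 (0.84), Fdps (0.81), Tceb1 (0.80) and Rasa2 (0.80). Egr3, at a mean of 0.287 CPM in these sums, was too sparse for its pattern to be read.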

How the data were processed

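Single-cell RNA and surface protein libraries of 19 lanes from 17 mice were used. The authors deposited UMI counts per gene and antibody for each cell barcode, made with Cell Ranger (3.1.0 in the processing notes, 3.0.2 or 3.1.0 in the file headers) against mm10, with no normalization. Lanes held 2550 to 9408 barcodes. Cells with at most 15% mitochondrial UMIs, at least 200 genes, 1000 to 10000 antibody UMIs and at least 70 of 111 antibodies were kept (72054), and 2844 called doublets were removed. Gates were cut on antibody counts, scaled to 10000 UMIs per cell on a natural log scale, at Otsu thresholds per experiment. After the distributions were seen, the CD69 threshold of experiment 3 and the CD127 thresholds of experiments 2 and 3 were replaced by those of experiment 1. Cycling, DN-like, Treg-like, negative selection-like, gamma-delta T-like, NKT-like, myeloid-like, B-like and erythrocyte-like clusters were left out of the gates. Clusters were named from marker lists by a scoring rule set after the clusters were seen.

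UMIs were summed per mouse and gate and tested with edgeR 4.0.16 (quasi-likelihood test, TMM, filterByExpr, Benjamini-Hochberg over all genes tested, two-sided, threshold 0.05), run in R 4.3.3 and tested on simulated data. Stage and CD5 comparisons, and the lineage difference in the step from DP2 to CD4+CD8lo, used the mouse as a block. Lineage comparisons within a stage used the genotype family as a covariate. CD5 sets were the lowest and highest of 4 equal parts of the DP2 cells of a mouse. Alternatives were DESeq2 1.42.0, no TMM, no low-count filter, CD69 and CD127 thresholds moved by 0.25, doublets kept, all clusters kept, at least 50 cells, each mouse left out and other blocks. Added after the data were seen were fits of each genotype family alone, the experiment as a further covariate, clusters from random starts 2 and 3, and leaving out the ICOS antibody, which experiment 3 lists under 2 tags, of which the one in the study's panel was used. Mice are separate animals. With the mouse as a block, p-values measure how the change within a mouse varies between mice. In single-stage lineage fits they measure the spread between mice beyond family and lineage. Python 3.11.15 was used otherwise.

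The 4 genes and all gene lists were chosen with earlier results of these data known. The named genes were the 4 members in every comparison, for each list the 2 to 4 called genes of largest absolute log2 fold change, and the 5 genes of highest Pearson correlation with each member, among genes with a mean of at least 10 CPM, on log2(CPM + 1) centred within mouse. All but 1 of the genes so named are reported here. Shares cover cells with a UMI, no background share was estimated, and counting error limits Egr3.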

Additional observations from a re-analysis of the deposited data

Results flagged for a closer look

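Of 60 groups of 4 to 10 mice looked at, 4 had 1 mouse far from the others, and chance gives about 1 group in 20. Nab2 was 288.5 CPM in DP3 and 272.8 in CD8 SM of F5 replicate 1, where the nearest CD8-fated mouse, F5 replicate 2, had 150.1 and 138.4. The DP3 sums of these F5 mice held only 23 and 41 cells. Egr1 was 90.7 in CD4 SM of OT-II replicate 2, next to 70.7 in the nearest CD4-fated mouse. In mature CD8 cells Egr1 was 117.0 in wild-type replicate 5, next to 42.03 in the nearest wild-type mouse.

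The step from DP2 to CD4+CD8lo differed between CD4-fated and CD8-fated mice for Nab2, by 0.84 on the log2 scale in a test of the difference itself (edgeR adjusted p 0.00219), a call lost without MHCII-/- replicate 2 (0.205, within a range of 7.4e-07 to 1.0 over all alternatives). When the clusters that decide which cells are left out of the gates were formed again, it was 0.61 to 0.69 and still called.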

How the results depend on the processing

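For the detected genes, 40 comparisons were refitted under 1014 alternatives. In 951 no call changed, although in 62 of these the sign of a difference that was not called turned. In 29 a call was lost, in 33 a call was gained, and in 1 the direction turned with a call: the difference of Egr1 between lineages in DP1, which was 0.71 with MHCI-/- and MHCII-/- mice alone. The cause was not tested.

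The number of genes called from DP1 to DP2 was 4958 with all clusters kept. With DESeq2 it was 126 from CD4+CD8lo to DP3, 317 from DP3 to CD8 SM, 303 to mature CD8, 760 from CD4+CD8lo to CD4 SM and 426 to mature CD4. DP3 against CD4+CD8lo gave 375 with no low-count filter, 958 with raised thresholds and 928 with at least 50 cells, which gave 1983 for CD8 SM against DP3, and mature CD8 gave 361 with all clusters. With at least 50 cells, both comparisons with DP3 held only the MHCII-/- mice. Between lineages, DP1 gave 8 with DESeq2, 136 with no filter, 1 with raised thresholds and 1 with all clusters. DP2 gave 60 with DESeq2, 170 with no filter, 51 with raised thresholds, 15 with doublets kept, 18 with all clusters and 8 with no family covariate. CD4+CD8lo gave 101 with DESeq2, 264 with no filter and 32 with no family covariate. SM gave 1465 with no filter and 416 with no family covariate, and mature cells 1123 and 248. The difference between lineages in the step from DP2 gave 282 with DESeq2 and 304 with all clusters, and CD5 gave 685 with no filter. With MHCI-/- and MHCII-/- mice alone the counts were 581 in DP1, 524 in DP2, 1189 in CD4+CD8lo, 2612 in SM and 1820 in mature cells. With clusters formed again from random starts 2 and 3, mature CD8 gave 280 and 475. CD4+CD8lo between lineages gave 35 from random start 2 and 32 with the ICOS antibody left out. With MHCI-/- and MHCII-/- mice alone, the reclusterings gave 848, 1017 and 1106 in CD4+CD8lo. With OT-II and OT-I mice alone the counts were 15 in DP1, 8 in DP2, 1 in CD4+CD8lo, 26 in SM, 36 in mature cells and 145 for the step, and with AND and F5 mice alone 25 in DP1, 8 in DP2, 214 in SM and 316 in mature cells. Without the 3 mice that stood apart the counts between lineages were 3 in DP1, 78 in DP2, 287 in CD4+CD8lo, 1473 in SM and 945 in mature cells. These fits and the reclusterings were chosen after the data were seen.

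With no block for the mouse, whose sums are paired by animal, the counts were 1113 from DP1 to DP2, 751 to CD4+CD8lo, 2 to DP3, 22 to CD8 SM, 0 to mature CD8, 27 to CD4 SM, 6 to mature CD4, 4 for the step between lineages and 93 for CD5. Replicate numbers of paired genotypes stand for experiments 1 and 2 in the AND and F5 family and not in the others. The correlation of deviations between mice of the same number was 0.09 to 0.15 in that family, 0.38 to 0.63 in the OT and -0.02 to 0.02 in the MHC family, so that not every pair deviated together. With the experiment added to the family covariate, a fit chosen after the data were seen, 0 genes were called in DP1, 37 in DP2, 43 in CD4+CD8lo, 780 in SM and 510 in mature cells, and no call of the 3 genes changed. A block on the number in place of the family gave 70 genes in DP2, 157 in CD4+CD8lo, 1309 in SM and 926 in mature cells, and Nab2 was called in CD4+CD8lo (adjusted p 0.0178, within a range of 3.3e-07 to 1.0).

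Leaving out 1 mouse gave 2741 to 3319 genes for DP2, 1605 to 1969 for CD4+CD8lo, 107 to 641 for DP3, 294 to 1289 for CD8 SM, 385 to 834 for mature CD8, 820 to 1367 for CD4 SM, 428 to 808 for mature CD4, 298 to 411 for CD5 and, between lineages, 0 to 5 in DP1, 16 to 51 in DP2, 10 to 126 in CD4+CD8lo, 442 to 1048 in SM, 316 to 742 in mature cells and 280 to 470 for the step. The lowest counts came without MHCII-/- replicate 2 in DP3, both CD8 steps, SM, mature cells and the step, without MHCI-/- replicate 2 in both CD4 steps, without MHCII-/- replicate 1 in DP2 between lineages and without MHCI-/- replicate 1 in CD4+CD8lo between lineages. Egr2 rested on 5563 UMIs and Egr3 on 85, which limits both.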
